A study of Mus musculus with 6 samples.

Results

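The natriuretic peptide system was followed in embryonic mouse cardiomyocytes after knockdown of DNA methyltransferase 1 (DNMT1). Its 8 members were taken from a list of genes and matched to the deposited tables by mouse symbol and Ensembl ID. They are the peptide genes Nppa, Nppb and Nppc, the receptor genes Npr1, Npr2 and Npr3, and the genes Corin and Furin of the proteases that process the prohormones. All 8 are among the 43629 genes of the tables, and 7 of them are among the 15470 genes with enough reads for a test.

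Natriuretic peptides of the atrial and B types are hormones that heart muscle releases when it is stretched. They lower blood pressure and restrain growth of the myocardium. Nppa encodes atrial natriuretic peptide (ANP), Nppb encodes B-type natriuretic peptide (BNP) and Nppc encodes C-type natriuretic peptide (CNP), and the receptors of Npr1 (for ANP and BNP) and Npr2 (for CNP) are guanylyl cyclases that make the second messenger cyclic GMP. The receptor of Npr3 has no cyclase and removes the peptides. In the embryonic heart, Nppa transcripts are abundant in the atria and in the trabeculae of the ventricles, Nppb lies beside Nppa on the chromosome, and Npr3 is known as a gene of the endocardium.

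RNA-Seq was performed on ventricular cells of CD-1 mouse embryos at embryonic day 13.5, which were pooled by litter, enriched by differential attachment and kept as primary cultures for 48 h before transfection. The 3 negative siRNA cultures received a commercial control siRNA and the 3 DNMT1 siRNA cultures a pool of 4 siRNAs against DNMT1, both at 12 nM, with a lipid reagent that all 6 cultures therefore share. After 72 h, cells were sorted on magnetic columns with an antibody against VCAM1, and polyadenylated RNA was sequenced. The titles of the treated samples name DNMT1 while a treatment tag in their labels names DNMT3a; the titles were followed.

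In the counts, Dnmt1 fell in all 3 DNMT1 siRNA cultures, to normalized counts of 666 to 786 against 2760 to 3446, and Dnmt3a did not pass the test (log2 fold change 0.24, FDR 0.092 by edgeR's quasi-likelihood test). Between 27852412 and 35896018 reads per negative siRNA library lay on genes, against 13739561 to 16186310 per DNMT1 siRNA library. The share of uniquely aligned reads outside annotated genes was also higher with DNMT1 siRNA, 24.41 to 31.95% against 14.6 to 17.51%. The label cardiomyocyte was checked against marker lists. All 12 cardiomyocyte markers had reads in every library, and their summed level was 2259 to 2978 CPM (reads scaled to a fixed library total) with negative siRNA and 5351 to 6565 CPM with DNMT1 siRNA. However, the summed level of 10 fibroblast and mesenchymal markers, most of it from Col1a1, Col1a2 and Col3a1, was higher than that in every library, at 36420 to 56030 CPM and 27750 to 29590 CPM. Sums over lists of such unlike genes do not measure the share of cells. The authors cite earlier flow cytometry in which the large majority of sorted cells were cardiomyocytes. The sorted cultures are called by their treatment below.

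Values are given as normalized counts, in which the library sizes have been made equal, and, where genes are compared with each other, as RPKM, that is, CPM per kilobase of exon. Changes are log2 fold changes of DNMT1 siRNA over negative siRNA ± SE from edgeR's quasi-likelihood test with 3 libraries per treatment. A gene was called differentially expressed when its FDR over all 15470 genes was below 0.05 and its absolute fold change above 1.5. By these limits 5 of the 7 tested members, Nppa, Nppb, Npr1, Npr3 and Corin, were higher with DNMT1 siRNA, none was lower, and Npr2 and Furin passed the FDR but not the fold limit. Among all tested genes, 4.26% passed both limits in the higher direction and 6.49% in either direction. At any size of change, 6.81% passed the FDR in the higher direction, those past both limits included. In either direction, 924 of the 15470 genes passed the FDR but not the fold limit. In all 7 members the 3 DNMT1 siRNA libraries lay above the 3 negative siRNA libraries, as they did in 18.3% of all tested genes. The median log2 fold change was 1.68 over the 7 members and -0.0049 over all tested genes. The members were chosen with earlier results of these data known, so this contrast carries no test. The edgeR p values measure the spread between the cultures, which the labels describe as samples of pooled litters. The test fits a shared spread for both treatments. Pairs of negative siRNA files differed more, with chi-square per degree of freedom of 29.69 to 61.6 against 2.82 to 10.25 for DNMT1 siRNA. This measure also grows with library size. Since RNA was measured in bulk, a change in the share of a cell type and a change in RNA per cell cannot be told apart.

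**Figure D1:**
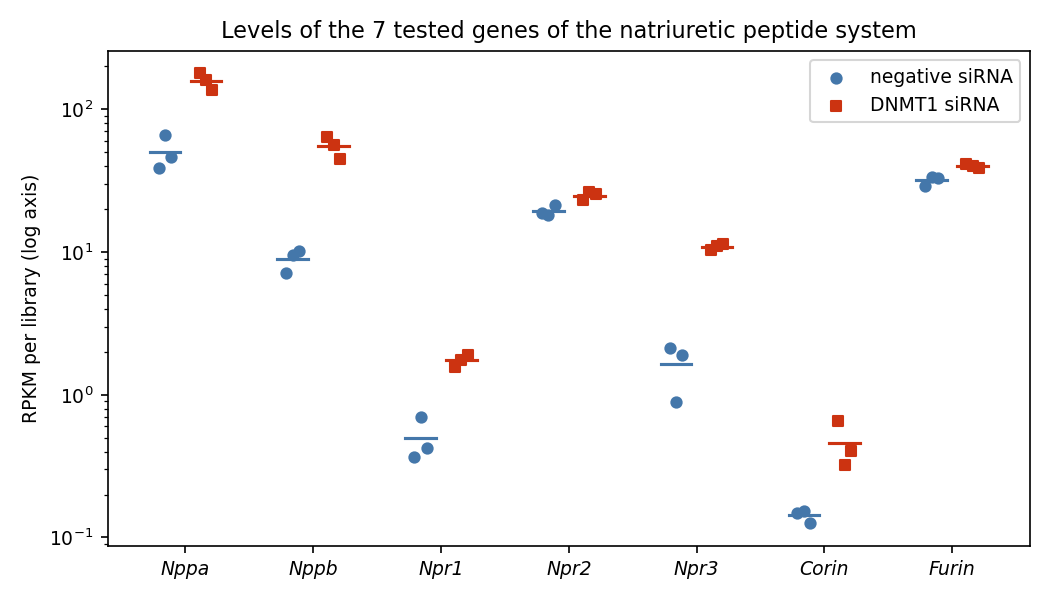
Level of the 7 tested genes of the natriuretic peptide system in each library, in RPKM on a log axis. Circles are the 3 negative siRNA libraries, squares the 3 DNMT1 siRNA libraries and lines the group means. The squares lie above the circles for every gene, narrowly for Npr2 and Furin and by a wide gap for Nppb and Npr3.

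Nppb, the gene of BNP, rose most among the peptide genes. Its normalized counts were 122, 162 and 171.1 in negative siRNA cultures 1 to 3 and 1085, 954.7 and 758.9 in DNMT1 siRNA cultures 1 to 3. The treatments did not overlap, and the lowest DNMT1 siRNA culture stood 4.44 times above the highest negative siRNA culture. The mean went from 151.7 ± 26.1 to 932.8 ± 164.1 (SD, n = 3), a log2 fold change of 2.63 ± 0.17 with an FDR of 0.000321 (edgeR), or 6.18-fold with a 95% interval of 4.71 to 8.10. Nppb ranked 29 by fold change among the 659 genes that were called higher.

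Nppa, the gene of ANP, had normalized counts of 723, 1247 and 874.8 in the negative siRNA cultures and of 3371, 2998 and 2579 in the DNMT1 siRNA cultures. Again the treatments did not overlap, although negative siRNA culture 2 stood 1.73 times above culture 1. The log2 fold change was 1.65 ± 0.19 (FDR 0.0023, edgeR), which is 3.15-fold with a 95% interval of 2.32 to 4.27, and the rank among the higher genes was 147. Nppc, the gene of CNP, was hardly detected. It had 0, 1 and 3 reads with negative siRNA and 0, 0 and 1 read with DNMT1 siRNA, too few for a test or a fold change.

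Per kilobase of annotated exon, Nppa was the highest of the 8 genes in both treatments, with 50.5 ± 14.4 RPKM and 158.8 ± 21.1 RPKM (SD, n = 3). Nppb moved up in this order. With negative siRNA its level of 7.19 to 10.1 RPKM came after those of Furin (29.2 to 33.3 RPKM) and Npr2 (18.2 to 21.4 RPKM), and with DNMT1 siRNA its level of 44.7 to 64 RPKM came before theirs (39 to 41.2 and 23.1 to 26.2 RPKM). Npr3, Npr1, Corin and Nppc followed in that order in both treatments. In neither treatment did the libraries of neighbours in the order overlap. The lengths take in all annotated exon bases of a gene, 9178 for Furin and 781 for Nppb, and can exceed the length of a transcript. The order between genes, such as Nppb before Furin with DNMT1 siRNA, therefore depends on these lengths.

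Because Nppb and Nppa lie on the same strand of the same locus, their ratio was formed within each library, where it does not depend on library size. For every 1000 Nppa reads there were 169, 130 and 196 Nppb reads in the negative siRNA cultures and 322, 319 and 294 in the DNMT1 siRNA cultures. All 3 ratios were higher with DNMT1 siRNA, by 0.94 on the log2 scale or 1.91-fold, with p = 0.1 in an exact two-sided permutation test, the smallest p that 3 cultures against 3 allow. It was 1 of 5 ratios examined, each with an exact permutation p = 0.1. Benjamini-Hochberg adjustment over these 5 equal values leaves 0.1, a stricter adjustment would raise it, and none of the 5 was below 0.05.

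Both genes were also set against the summed reads of the 12 cardiomyocyte markers, of which 10 were called higher, none lower, and whose summed CPM was 2.34 times as high with DNMT1 siRNA. Per 1000 reads of these markers, Nppb had 2.49, 2.51 and 3.10 reads with negative siRNA and 7.61, 6.97 and 6.54 reads with DNMT1 siRNA, a difference of 1.39 on the log2 scale (2.62-fold, exact permutation p = 0.1). Nppa had 14.7, 19.3 and 15.8 reads per 1000 marker reads against 23.7, 21.9 and 22.2, a difference of 0.45 on the log2 scale (1.37-fold, exact permutation p = 0.1). In both ratios the treatments did not overlap, and the difference left for Nppa was the smaller one. The 12 markers themselves had log2 fold changes from -0.18 for Tnni1 to 1.98 for Ttn, with a median of 1.28. The log2 fold change of Nppa, 1.65, lay within that range, and that of Nppb, 2.63, lay above it. Against 6.49% of all tested genes called, 2 of 8 tested atrial markers were called higher, Myl4 and Pam, and 1 lower, Dkk3. Their log2 fold changes were 1.11, 0.76 and -1.58. The summed level of all 11 listed was 604.2 to 781.1 CPM against 929.2 to 1012 CPM. Pam held the largest part of that sum, and its mean rose from 7917 to 13414 normalized counts. Dkk3 fell from a mean of 2261 to 755.5. The higher atrial sum therefore rests largely on Pam. Of the 8 ventricular markers 3 were higher and none lower, and the median log2 fold change was 0.85, against 0.49 for the atrial markers. The summed level of the ventricular markers overlapped between the treatments (1430 to 2109 CPM and 1506 to 1695 CPM), and most of it came from Lbh, which had a log2 fold change of -0.34 and was not called. The part of a shift in cell types or in muscle genes as a whole in the change of Nppa and Nppb was not tested beyond these ratios.

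**Figure D2:**
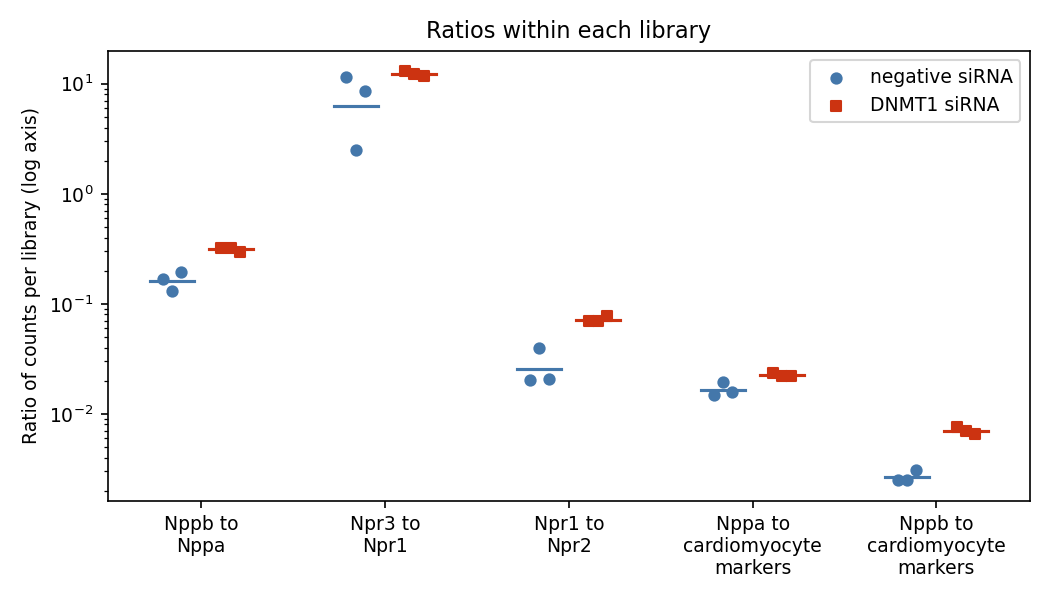
Ratio of read counts within each library on a log axis, for Nppb to Nppa, Npr3 to Npr1, Npr1 to Npr2, and Nppa and Nppb to the summed cardiomyocyte markers. Circles are negative siRNA libraries, squares DNMT1 siRNA libraries and lines the means of the log2 ratios; each ratio is higher in all 3 DNMT1 siRNA libraries, and negative siRNA culture 2 stands low at 2.5 for Npr3 to Npr1.

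Nppb (chr4:147985788-147987205, GRCm38, plus strand) and Nppa (chr4:148000722-148002079, plus strand) start 14.9 kb apart, with 13516 bases between the end of Nppb and the start of Nppa. Within 100 kb of either gene the GENCODE annotation places 12 further genes, all of them in the tables, and 6 tested ones are described here. None of the 6 was called by edgeR or by DESeq2, and 2 of them, Mfn2 and Agtrap, had an unadjusted p below 0.05 in edgeR. Their log2 fold changes lay between -0.23 for Plod1, a collagen lysyl hydroxylase, and 0.45 for Mfn2, a mitochondrial fusion gene that reaches into the window and that passed the FDR (0.00675) but not the fold limit. Clcn6, which follows Nppa, had a log2 fold change of 0.07 (95% interval -0.18 to 0.32). Those of 2510039O18Rik, Chchd2-ps and Agtrap were -0.13, -0.14 and 0.20. A further 5 genes, among them Draxin, had too few reads for a test. Of these 8 tested genes the 2 peptide genes were thus the ones past both limits.

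**Figure D3:**
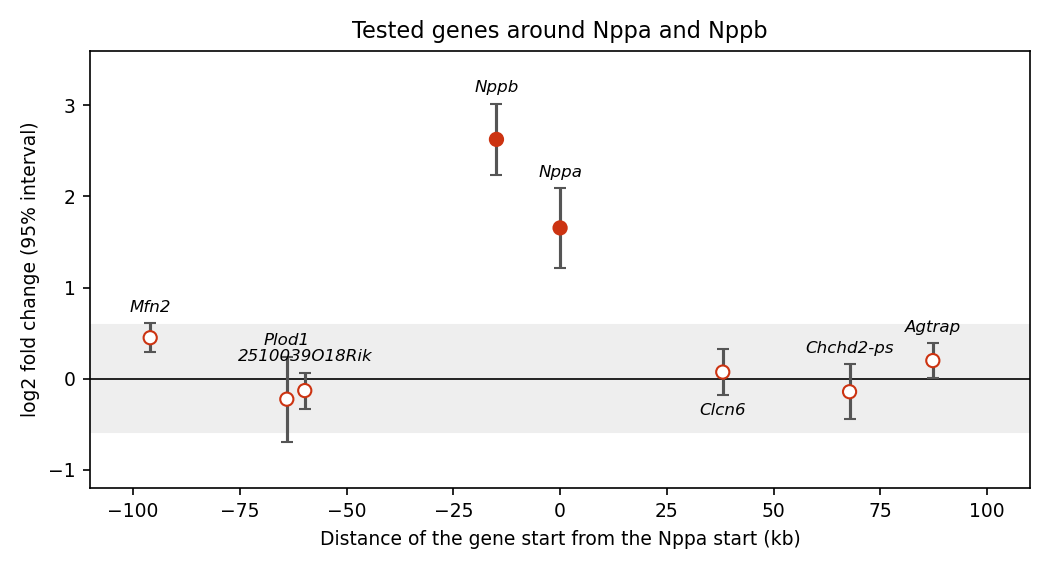
Log2 fold change of DNMT1 siRNA over negative siRNA for Nppa, Nppb and 6 tested genes around them, by the distance of the gene start from the Nppa start in kb. Bars are 95% intervals, filled points passed both limits, and the grey band holds changes within 1.5-fold; Nppa and Nppb stand above the band and the points of the 6 neighbours lie inside it.

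The count of Nppa is subject to a limit of annotation. The antisense gene Gm13054 covers 532 of the 865 exon bases of Nppa (61.5%). The library kit does not mark strand and the strand setting of the counting was not given in the sources used here, so that reads in the shared bases may have been set aside as ambiguous and the level of Nppa per length may be understated. Gm13054 itself had at most 8 reads in any library. The share of reads set aside as ambiguous was 3.58 to 3.65% in the negative siRNA libraries and 6.02 to 6.35% in the DNMT1 siRNA libraries. Antisense genes cover 11.7% of the exon bases of Npr1 and at most 5.7% of those of the other tested members.

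Since DNMT1 copies methylation at CG dinucleotides, the letters upstream of the starts were read from the RefSeq promoter table (GRCm38.p6), which held all 8 members. No methylation was measured in these libraries, and the sequences describe the sites only. From separate bisulfite sequencing, the authors report lower methylation at promoter CG sites of both Nppa and Nppb after DNMT1 siRNA. Those reads were not analysed here. Shown are the bases before the starts of Nppb and Nppa, the neighbours that rose, and of Corin and Npr1, the called members with the fewest and the most CG. CG dinucleotides are in capitals, all are written 5′ to 3′ on the strand of the gene, and the Nppb run stops where its first annotated exon begins.
Nppb, chr4:147985650-147985787, plus strand: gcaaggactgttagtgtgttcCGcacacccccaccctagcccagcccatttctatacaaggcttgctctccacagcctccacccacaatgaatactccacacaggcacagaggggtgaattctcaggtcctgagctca
Nppa, chr4:148000472-148000721, plus strand: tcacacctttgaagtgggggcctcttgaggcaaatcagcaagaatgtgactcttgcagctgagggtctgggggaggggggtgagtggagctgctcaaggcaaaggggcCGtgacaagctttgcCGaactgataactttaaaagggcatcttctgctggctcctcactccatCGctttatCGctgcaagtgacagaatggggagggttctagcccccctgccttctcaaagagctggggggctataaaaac
Corin, chr5:72504541-72504790, minus strand: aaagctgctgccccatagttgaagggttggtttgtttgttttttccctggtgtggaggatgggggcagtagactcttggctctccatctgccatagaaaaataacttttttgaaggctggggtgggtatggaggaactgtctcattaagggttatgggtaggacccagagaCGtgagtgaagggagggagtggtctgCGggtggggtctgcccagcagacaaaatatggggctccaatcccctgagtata
Npr1, chr3:90465867-90466116, minus strand: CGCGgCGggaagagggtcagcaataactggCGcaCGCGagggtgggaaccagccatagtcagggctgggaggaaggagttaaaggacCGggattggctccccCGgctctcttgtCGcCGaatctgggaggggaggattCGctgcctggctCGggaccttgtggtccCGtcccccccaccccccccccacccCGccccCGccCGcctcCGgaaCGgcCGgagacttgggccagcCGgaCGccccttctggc

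In the 300-base windows of that table, from 250 bases before to 50 bases after the start, Nppb held 7 CG, Nppa 6, Npr3 6 and Corin 5, near the median of 7 over all 32851 windows (quartiles 3 to 20). Npr1 held 26 CG, more than 83.1% of all windows. Npr2, which was not called, held 13, and the windows of the 2 Furin starts held 7 and 51. Called members were thus found with both few and many CG at their starts.

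Letters that cardiac transcription factors can bind were found in the windows of Nppa and Nppb. Both held the TATA letters TATAAA, 31 to 26 bases before the RefSeq start of Nppb and 9 to 4 bases before that of Nppa, as did 8.32% of all windows on that strand. GATA letters (AGATAA and TGATAA, or the same with a final G, on either strand, in 29.8% of windows) stood at 95 to 90 and 84 to 79 bases before the RefSeq start of Nppb and at 122 to 117 bases before the Nppa start. Nppa also held AAGTG, letters of NKX2-5, at 239 to 235 and 65 to 61 bases before the start (46.4% of windows), and AGGTGT, letters of T-box factors, on the minus strand (13.7%). Nppb held CATTCC, letters of TEAD factors, on the minus strand at 105 to 100 bases before the start (14.7%). Neither window held AP-1 letters (TGACTCA or TGAGTCA), an SRF box or a MEF2 box. Among these letters the windows of Npr1, Npr3 and Corin held none. The stretches with the GATA letters and the TEAD letters (GGAATG as read on the plus strand) are shown with these matches in capitals. The Nppb matches lie before the RefSeq start but inside the first exon that GENCODE gives, which begins farther upstream.
Nppb, chr4:147985793-147985822, plus strand: caGGAATGcagcTGATAAatcagAGATAAc
Nppa, chr4:148000592-148000621, plus strand: tgccgaacTGATAActttaaaagggcatct

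Of the regulators that are known to act on these promoters, 32 were listed and tested, with a median log2 fold change of 0.14. Called higher were 5 and lower 1, against 4.26% higher and 6.49% in either direction among all tested genes. Nkx2-5, a homeobox factor of heart muscle, had normalized counts of 285.4, 343.3 and 290.8 with negative siRNA and of 568.6, 575.8 and 457.9 with DNMT1 siRNA (log2 fold change 0.80 ± 0.12, FDR 0.00658, edgeR). Tbx20, a T-box factor, rose by the same size, from 8996 to 16300 normalized counts to 21750 to 22490 (0.80 ± 0.18, FDR 0.0281, edgeR). Hand1, Fos and Myocd, a coactivator of SRF, were also higher, with log2 fold changes of 0.79, 0.71 and 0.59. Tbx2, a T-box repressor of chamber genes, fell by 0.78 on the log2 scale (FDR 0.0221, edgeR). The other 26 regulators had log2 fold changes between -0.45 and 0.45, and Gata4 was among them at -0.02. These calls were less stable than those of the peptides. Leaving out DNMT1 siRNA culture 1, 2 or 3 left 1, 0 and 1 of the 6, and a test against a fold change of 1.5 (glmTreat) left 0.

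The receptors differed in size of change. Npr3, the clearance receptor, had normalized counts of 433.6, 181.3 and 384.9 with negative siRNA and of 2112, 2251 and 2332 with DNMT1 siRNA. The DNMT1 siRNA cultures lay close together, within 1.10-fold, and the lowest of them stood 4.87 times above the highest negative siRNA culture, whereas the negative siRNA cultures spread 2.39-fold, with culture 2 low. The log2 fold change of 2.74 ± 0.27 (FDR 0.00125, edgeR) was the largest point estimate of the members, 6.68-fold with a 95% interval of 4.34 to 10.3, and overlapped in its interval with that of Nppb. Its rank among the higher genes was 20.

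Npr1, the receptor for ANP and BNP, had normalized counts of 37.93, 72.38 and 44.32 in the negative siRNA cultures and of 162.3, 182.2 and 197.9 in the DNMT1 siRNA cultures. All 3 DNMT1 siRNA cultures were higher, by a log2 fold change of 1.81 ± 0.25 (FDR 0.00381, edgeR), although the level remained low at 1.56 to 1.91 RPKM. Npr2, the receptor for CNP, was the most abundant receptor per length in both treatments. Its normalized counts of 1902, 1848 and 2170 with negative siRNA and of 2345, 2651 and 2573 with DNMT1 siRNA did not overlap, but the gap was narrow, 1.08-fold. The log2 fold change was 0.35 ± 0.08 (FDR 0.032, edgeR), and its 95% interval of 0.16 to 0.55 ended below the fold limit.

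Within libraries, Npr1 gained on Npr2. There were 20.1, 39.3 and 20.6 Npr1 reads per 1000 Npr2 reads with negative siRNA and 69.4, 69 and 77.2 with DNMT1 siRNA, a difference of 1.502 on the log2 scale (2.83-fold, exact permutation p = 0.1). The ratio of Npr3 to Npr1 reads was 11.4, 2.5 and 8.62 with negative siRNA and 13, 12.3 and 11.7 with DNMT1 siRNA. Its difference of 0.98 on the log2 scale (exact permutation p = 0.1) rested on negative siRNA culture 2, without which it was 0.32.

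Npr3 is known from endocardium, so endothelial and endocardial markers were read beside it. Of 11 tested markers 2 were called higher, Kdr and Emcn, with log2 fold changes of 0.91 and 1.38, and none was lower. Among all tested genes 4.26% were called higher. The summed level of the 12 listed markers was 164.8, 228.2 and 175.8 CPM in the negative siRNA cultures and 262.3, 262.1 and 251.3 CPM in the DNMT1 siRNA cultures, 1.36 times as high on average. Flt1 had the most normalized counts of the list, with a log2 fold change of 0.41 that did not pass the fold limit. The markers not called had log2 fold changes from -0.35 for Tek to 1.06 for Plvap. The median log2 fold change over the 11 tested markers was 0.83. No marker of this list was at 0 in every library, and Cldn5 had at most 3 reads. Negative siRNA culture 2, with the lowest Npr3, had the highest sum of these markers among the negative siRNA cultures. Epicardial markers gave 1973 to 2347 CPM and 2272 to 2384 CPM, smooth muscle and pericyte markers 5496 to 8165 CPM and 4633 to 4823 CPM, and macrophage markers 15.51 to 40.5 CPM and 12.78 to 18.91 CPM. None of these 3 lists had a gene called higher, and each had 1 gene called lower, Krt19, Pdgfrb and Lyz2. Of the 10 fibroblast and mesenchymal markers none was higher and 4 were lower, Fbln1, Col1a2, Col1a1 and Dcn. The part of these shifts in the change of the receptors was not tested.

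**Figure D4:**
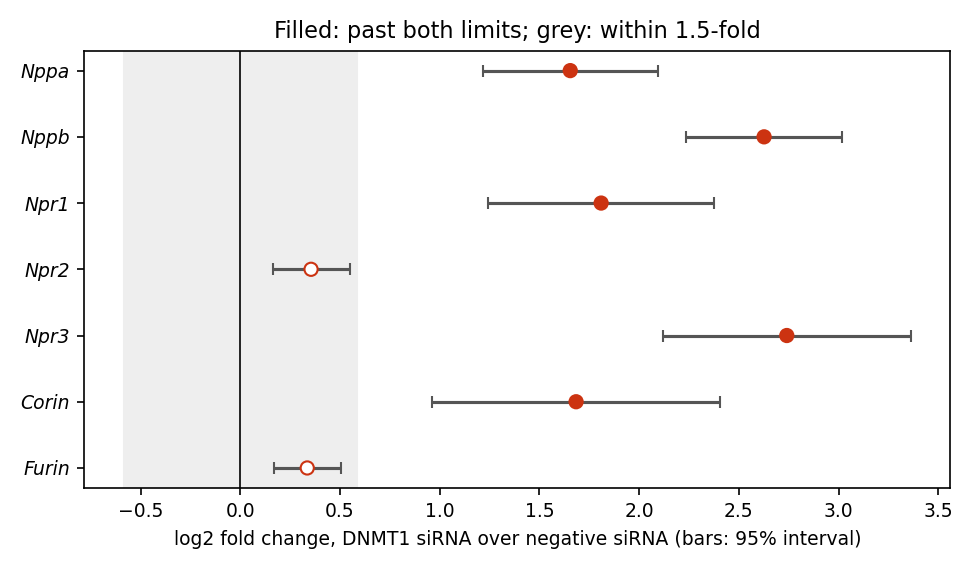
Log2 fold change of DNMT1 siRNA over negative siRNA for the 7 tested members with 95% intervals, from edgeR. Filled points passed both limits, open points passed the FDR only, and the grey band holds changes within 1.5-fold; the intervals of Npr2 and Furin lie inside the band and those of the other 5 lie above it.

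Corin encodes the membrane protease that cleaves the ANP prohormone on heart muscle cells. It was sparse, with 30, 26 and 19 reads in the negative siRNA libraries and 57, 26 and 29 in the DNMT1 siRNA libraries, which overlapped before scaling to library size. After scaling, 17.51, 17.92 and 14.77 normalized counts stood against 76.43, 37.9 and 47.43, with no overlap and with DNMT1 siRNA culture 1 well above the others. The log2 fold change was 1.68 ± 0.31 (FDR 0.0139, edgeR). The call was lost without DNMT1 siRNA culture 1 (log2 fold change 1.31, FDR 0.0623), without culture 3 (1.75, FDR 0.0524) and with glmTreat (FDR 0.1007).

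Furin, a protease of the secretory pathway that cleaves many prohormones, BNP among them, was abundant in both treatments. Its normalized counts were 5824, 6631 and 6589 with negative siRNA and 8211, 8053 and 7765 with DNMT1 siRNA. The groups did not overlap, and the log2 fold change was 0.34 ± 0.07 (FDR 0.0244, edgeR), with a 95% interval of 0.17 to 0.50 that ended below the fold limit. The FDR of Furin rose above 0.05 without DNMT1 siRNA culture 1, 2 or 3 (edgeR FDR 0.126, 0.126 and 0.0964) and with a replicate block (0.0613), and that of Npr2 without the same cultures (0.0799, 0.154 and 0.136), without negative siRNA culture 1 (0.0581) and with the block (0.0535). Unscaled reads of Furin and Npr2 were fewer in each of the smaller DNMT1 siRNA libraries, so that their direction rests on the scaling between libraries.

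Downstream of the receptors, 21 of 29 listed genes of cyclic GMP signalling and peptide clearance were tested, with a median log2 fold change of 0.05. Of these, 2 were called higher and 2 lower, against 4.26% higher and 6.49% in either direction among all tested genes. Pde1a, a phosphodiesterase that breaks down cyclic nucleotides, had normalized counts of 1256, 1701 and 1140 with negative siRNA and of 494.8, 482.5 and 507 with DNMT1 siRNA, and fell by 1.47 ± 0.15 on the log2 scale (FDR 0.00129, edgeR). Gucy1a1, a subunit of the soluble guanylyl cyclase that nitric oxide activates, went from 9148, 11820 and 11740 to 5951, 5054 and 6156, and fell by 0.93 ± 0.12 (FDR 0.00322, edgeR). Neither gene overlapped between the treatments.

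Pcsk6, a proprotein convertase, rose from 2117, 2116 and 2544 to 3559, 3436 and 3729 normalized counts (log2 fold change 0.66 ± 0.09, FDR 0.0034, edgeR). Abcc4, a transporter that exports cyclic nucleotides, rose by 0.81 ± 0.15 (FDR 0.0143, edgeR), a call that was lost without any 1 of the DNMT1 siRNA cultures (edgeR FDR 0.066 to 0.0771) and with glmTreat (FDR 0.534). The remaining 17 tested genes had log2 fold changes between -0.94 and 1.84 and did not pass both limits, although 4 of them passed the FDR. Prkg1, the main cyclic GMP-dependent kinase of muscle, stood at 0.05 and the phosphodiesterase gene Pde5a at -0.03. The list as a whole thus had calls in both directions while the 5 called members had 1. Members and lists were picked with earlier results of these data known, so this contrast carries no test. In glmTreat 1 of the 4 calls was left.

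**Figure D5:**
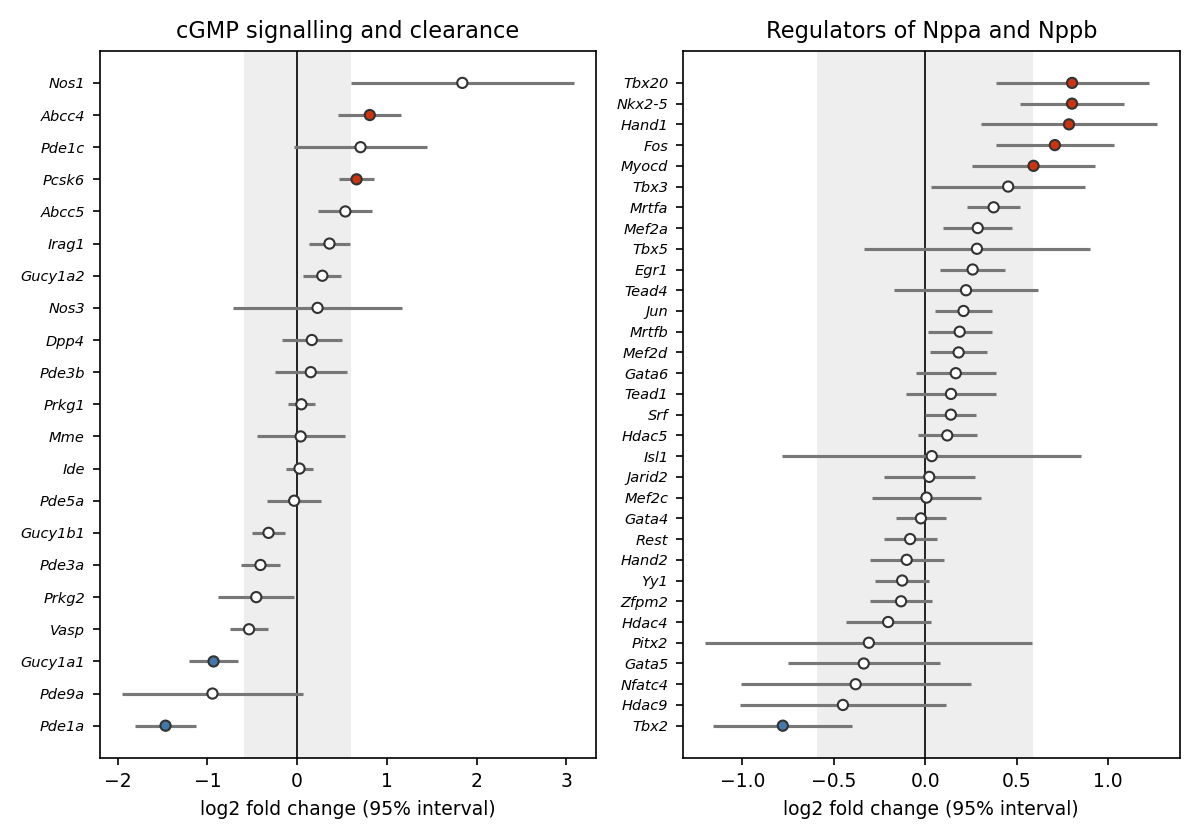
Log2 fold change with 95% intervals for the tested genes of cyclic GMP signalling and clearance (left) and for the listed regulators of the Nppa and Nppb promoters (right). Red points were called higher with DNMT1 siRNA, blue points lower and open points not called; 2 higher and 2 lower genes stand on the left, and 5 higher and 1 lower on the right.

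Genes whose pattern over the 6 libraries was most like that of a member were found by the root mean square distance of log2 CPM, each gene centred on its mean, among 12737 genes. Those of Nppa included Epn3 and Smpx, a small muscle protein, at distances of 0.04 and 0.07 on the log2 scale. Those of Nppb included Colq and Tecrl, both at 0.21. Smpx had a mean of 211.3 ± 50.0 normalized counts with negative siRNA and of 647.9 ± 79.3 with DNMT1 siRNA (SD, n = 3). Those of Npr3 included Sfrp4, a secreted frizzled-related protein, and Rn7sk, at 0.15 and 0.32, so that the nearest gene of Npr3 was farther away than that of Nppa. Rn7sk is a small nuclear RNA without a poly(A) tail. Its mean rose from 56.25 to 554.1 normalized counts, although polyadenylated RNA was sequenced. That log2 fold change of 3.29 (FDR 0.000313, edgeR) exceeded that of every member. Whether a difference in library composition lies behind it was not tested. These distances describe 6 libraries of 2 treatments and carry no test.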

How the data were processed

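RNA-Seq was performed on sorted embryonic cardiomyocyte cultures, 3 per siRNA treatment. The authors checked the reads with FastQC, mapped them to mm10 (GRCm38) with TopHat2 and counted them on the genes of Ensembl release 79 with HTSeq; versions of these tools are not given in the sources used here. The deposited values are raw counts per gene in a file for each culture, with no normalization. Summary lines for reads on no gene were kept out of library sizes and tests.

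Counts were tested in R 4.3.3 with edgeR 4.0.16 (TMM, filterByExpr with a minimum count of 10 and a minimum total of 15, glmQLFit and glmQLFTest) and adjusted over 15470 genes by the Benjamini-Hochberg method. SE was the size of the log2 fold change over the root of F. Ratios used counts plus 0.5 and an exact two-sided permutation test (scipy 1.17.1). Positions and exon lengths came from GENCODE on GRCm38, promoter letters from RefSeq on GRCm38.p6. RPKM used the TMM-scaled library size and all exon bases of a gene.

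The members and the lists were chosen with earlier results of these data known. Named genes were all members, the called genes of each list, genes within 100 kb of Nppa or Nppb, Dnmt1, Dnmt3a and Vcam1 as checks, and the 3 nearest patterns of Nppa, Nppb and Npr3; some genes that this rule named are not reported here. Gata4, Prkg1, Pde5a, Cldn5 and Draxin were added after their values were seen. Vcam1, the gene of the sorting antigen, was not called (log2 fold change -0.26). Pde2a was not analysed here. Alternatives were DESeq2 1.42.0, edgeR's exact test, RLE scaling, other filters on low counts, a replicate block, glmTreat, a pseudocount of 5 and leaving out each culture. No 2 files of a treatment were copies (chi-square per degree of freedom 29.69 to 61.6 for negative siRNA, 2.82 to 10.25 for DNMT1 siRNA). The labels number the cultures, but same-numbered cultures did not deviate together from their group means (correlations 0.0064, -0.0208 and 0.0274), so that no block was used.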

Additional observations from a re-analysis of the deposited data

Results flagged for a closer look

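A class of reads outside the gene comparisons was higher than in the control libraries. Uniquely aligned reads outside annotated genes made up 29.28% ± 4.23 (SD, n = 3) of uniquely aligned reads with DNMT1 siRNA and 16.42% ± 1.58 (SD, n = 3) with negative siRNA, and the treatments did not overlap. Which sequences these reads came from, and whether they touch the counts of the natriuretic peptide genes, was not tested.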

How the results depend on the processing

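Nppa, Nppb, Npr1 and Npr3 kept their calls in all 14 alternatives, with log2 fold changes of 1.49 to 1.90, 2.48 to 2.74, 1.62 to 2.14 and 2.44 to 2.99. Npr2 (0.31 to 0.43) and Furin (0.28 to 0.37) stayed higher and below the fold limit in all 14, but kept an FDR below 0.05 only in part of them, not with the replicate block, with glmTreat or without any 1 DNMT1 siRNA culture. The number of members called was 5, or 4 where Corin was lost, with glmTreat and without DNMT1 siRNA culture 1 or 3. The counts of called genes moved more. Without the filter on low counts, which also shifted the median log2 fold change of all genes to 0.11, 994 genes were called higher and 701 lower, and with glmTreat 140 and 36. Leaving out 1 culture gave 255 to 823 higher and 112 to 472 lower genes, with the fewest in both directions without DNMT1 siRNA culture 2 (316 and 146 without culture 1, 314 and 145 without culture 3). Of the cyclic GMP list, 4 genes were called, 1 with glmTreat and 3 to 5 with a culture left out. Of the regulators, 6 were called, 0 with glmTreat and 0 to 6 with a culture left out; Myocd kept its call in 5 of 14 alternatives, Hand1 in 8, Tbx2 and Tbx20 in 9, Fos in 10 and Nkx2-5 in 12. With a replicate block the regulators called numbered 3, the members called remained 5 in number, and the exact sign-flip p of each ratio was 0.25, the smallest that 3 pairs allow. Same-numbered cultures did not deviate together, which does not settle whether they were prepared as pairs. Without negative siRNA culture 2, Plod1 and Clcn6, which were not called, changed sign, to 0.086 and -0.0321; over all cultures left out they ranged from -0.4098 to 0.086 and from -0.0321 to 0.1387. The cause of these shifts was not tested. Within-library differences ranged from 0.78 to 1.07 for Nppb to Nppa, 1.33 to 1.82 for Npr1 to Npr2, 0.32 to 1.41 for Npr3 to Npr1, 0.37 to 0.56 for Nppa to cardiomyocyte markers and 1.33 to 1.49 for Nppb to these markers, on the log2 scale. With 3 cultures per treatment and smaller libraries under DNMT1 siRNA, sparse genes such as Corin and Nppc are limited by counting error.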
